A study of Homo sapiens with 10 samples.

Results

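The Hedgehog pathway genes PTCH1, SMO, GLI2, GLI3, HHIP, BOC and CDON were followed through the hepatic differentiation of H1, a widely used human embryonic stem cell (hESC) line. They were chosen by name from a list of 10 symbols, of which 7 were found among the 12125 genes of the RNA-seq table. Each of these 12125 genes had a second-highest value of 26 or more over the days sampled. Here and in the lists below, a symbol that was not found may therefore belong to a gene with low values. Why a symbol was absent was not tested. GLI1, GAS1 and SHH were not analysed here. Total RNA was sequenced daily from day 0 to day 3, at intervals of 2 days from day 5 to day 13, and on day 21. Each of the 10 days has a single library without a replicate. Day 0 was undifferentiated cells in mTeSR1 medium without added factor. Days 1, 2 and 3 had Activin A at 100 ng per ml in RPMI/B27 without insulin, and days 5 and 7 had FGF4 at 30 and BMP2 at 20 ng per ml in RPMI/B27 with insulin. Days 9 and 11 had HGF and KGF, each at 20 ng per ml, in the same medium with insulin, and day 21 had Oncostatin M (OSM) at 20 ng per ml in hepatocyte culture medium without EGF. The day 13 library is labelled OSM, although the durations that the protocol gives for the steps end the HGF and KGF step on that day, and it was read here as the end of that step. All libraries came from 1 cell line, no library of cells kept without the factors was part of the course, and the protocol names no Hedgehog ligand or inhibitor.

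Hedgehog ligands are secreted proteins that bind the receptor PTCH1, which in their absence holds back the membrane protein SMO. Released SMO acts through the primary cilium on the GLI transcription factors, of which GLI2 is mainly an activator and GLI3 is often cut to a repressor. CDON and BOC are co-receptors that help ligand binding, and HHIP is a decoy that binds ligand without passing the signal on. PTCH1 and HHIP are themselves target genes of the pathway, so that their mRNA levels are often read as its output, and in the developing gut and liver the ligand usually comes from the epithelium and the response from the mesenchyme around it.

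The deposited GC-normalized values are whole numbers on a scale shared by the libraries and are not read counts. Their sums lay between 2330948 and 2362740 per library and their medians were 81 or 82, so that the depth of a library cannot be read from them. Differences between days are given as differences of log2(value + 1), on which changes of genes with low values appear smaller than they are. A gene was counted as called where this difference was at least 2, a 4-fold change, with the larger value at least 50. With 1 library per day no difference has a test or a p-value. As a gauge of the spread between libraries, the standard deviation (SD) of the difference between days 9 and 11, which share a medium, was taken over the 500 genes nearest in level. This SD was 0.93 at a value of 10, 0.51 at 50, 0.33 at 100 and 0.28 at 500, and it also holds any real change between these days. Values are not divided by gene length, so that the levels of different genes were not compared.

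The pluripotency markers, 8 in number, had a summed value of 16449 at day 0 and 194 at day 21. The 9 markers of definitive endoderm (DE) had 30 at day 0 and 23480 at day 3, and the 10 hepatic markers had 70 at day 0 and 91082 at day 21. Markers of other cell types had values in the late libraries as well. The 11 mesenchymal markers found, of 14 listed, summed to between 1614 and 3437 from day 0 to day 5 and to 7279, 21674, 24977, 43725 and 44562 at days 7, 9, 11, 13 and 21, although genes near the top of the scale move there between shared levels. The early sums hold opposite courses, since THY1 had 2164 on day 0 and 147 on day 3, and VIM 286 and 2168. From day 0 to day 21, 10 of these markers were higher and 1, THY1, was lower, at 12 on day 21. The 4 endothelial markers found of 5 summed to between 302 and 1902, and the 2 macrophage markers found of 5 to at most 50 before 324 at day 21. These sums hold only the markers found, and those not found may have had low values throughout. In these bulk libraries a change in the number of cells of a type and a change in RNA per cell cannot be told apart, and the part of these cells in the results was not tested.

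HHIP varied most of the 7 genes. It had 16, 0, 38 and 32 on days 0 to 3, then 102 and 64 on days 5 and 7, 607, 536 and 403 on days 9, 11 and 13, and 114 on day 21. The decoy receptor was therefore low through the Activin A step, intermediate with FGF4 and BMP2, high only in the 3 libraries of days 9, 11 and 13, and back near its day 5 value at day 21. From day 7 to day 9 the ratio of its values was 9.48 and the log2 difference 3.23, against an SD of 0.29 at that level. HHIP was the only one of the 5 members with a value of at least 50 to be called higher in that interval, where 0.757% of all genes tested were. From day 7 to day 13 the difference was 2.64, and from day 13 to day 21 it was -1.81, with SDs of 0.29 and 0.27. In the order of its days, the step from day 13 down to day 21 and the step to the 0 of day 1 were larger than 2 SDs, and the other 7 of the 9 neighbouring values lay within that distance. HHIP is listed as ENSG00000164161 on the plus strand of chromosome 4 (145567173 to 145666423, as the table gives it). In GENCODE release 29 its exons share bases with those of HHIP-AS1 on the other strand, and whether strand was used in the counting is not given in the sources used here, so that reads of the pair cannot be told apart. The same holds for PTCH1, SMO and CDON, whose exons share bases with AL161729.1, AC011005.4 and VSIG10L2.

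**Figure D1:**
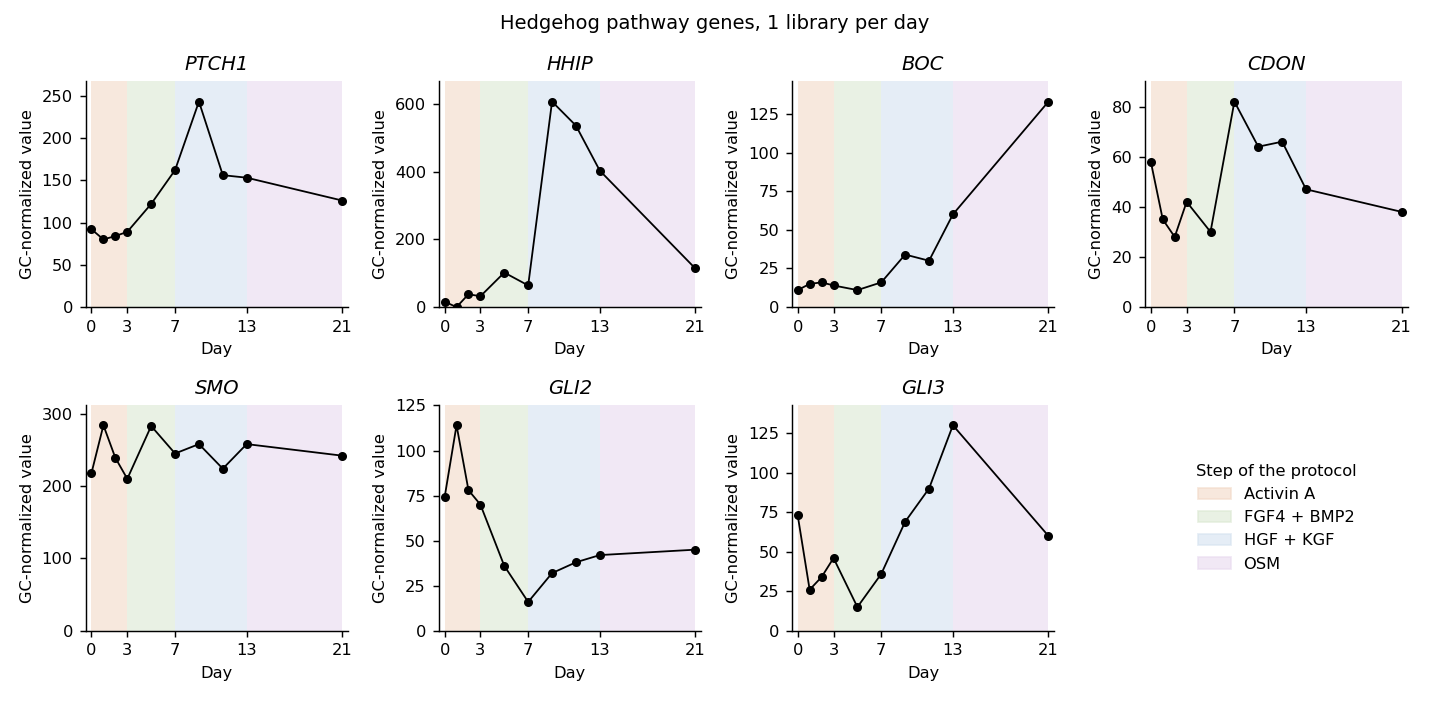
GC-normalized value (vertical axes, each from 0) of the 7 Hedgehog pathway genes against the day of differentiation, with 1 point per library, no error bars because each day has 1 library, and shading for the steps of the protocol by their durations. HHIP is at 607, 536 and 403 at days 9, 11 and 13 and at most 114 in the other libraries, PTCH1 peaks at 243 at day 9, BOC is highest at day 21 (133), GLI2 is lowest at day 7 (16), and SMO stays between 210 and 284.

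PTCH1, the receptor, moved over a smaller range with its highest value also on day 9. For HHIP the values of days 9 and 11 lay within 2 SDs of each other, so that a shared peak day is not resolved. It had 92, 80, 84 and 89 on days 0 to 3, then 122 and 162 on days 5 and 7, 243, 156 and 153 on days 9, 11 and 13, and 126 on day 21. The 4 libraries up to day 3 lay at 92 or below and the 6 later ones at 122 or above, a division of the days made after the values were seen. From day 3 to day 7 the log2 difference was 0.86, against an SD of 0.30, and from day 3 to day 9 it was 1.44. From day 9 to day 11, with no change of medium, PTCH1 was lower by a log2 difference of -0.64, against an SD of 0.29, so that the height of the peak rests on the day 9 library. Without day 9 the highest value was 162, at day 7. In the order of days the gap between day 9 and day 7, of 0.58 against an SD of 0.29, lay at the limit of 2 SDs and the other gaps lay within it, and PTCH1 was called in 0 of the 5 comparisons between the ends of the steps. PTCH1 is listed as ENSG00000185920 on chromosome 9, minus strand (98205262 to 98270943 in the table).

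The promoters of PTCH1 and HHIP are shown because both are known targets of GLI factors, which bind the sequence GACCACCCA. RefSeq promoter windows of 300 bases, from 250 before to 50 after a transcript start (GRCh38.p14), were found for 6 of the 7 genes, 14 windows in all, and were searched on both strands. GACCACCCA, or TGGGTGGTC on the other strand, was found in 1 of the 14 windows, a window of PTCH1, and in 0.236% of all 35116 windows. Its first base lay 172 bases before that start. With any 1 of the 9 letters free, written as NACCACCCA, GNCCACCCA, GANCACCCA, GACNACCCA, GACCNCCCA, GACCANCCA, GACCACNCA, GACCACCNA and GACCACCCN, 6.74% of all windows had a match, and of the members again only PTCH1, in 3 of its 5 windows. The other 2 of these windows overlap and share 1 match, GAGCACCCA. The 250 bases before the start are printed for that PTCH1 window, chr9:95509267-95509516 on the minus strand, with the motif in capitals, and for the single HHIP window, chr4:144645906-144646155 on the plus strand, which holds no match. The intervals given above for PTCH1 and HHIP do not overlap these genes in GRCh38 and are not to be set beside these positions.
PTCH1: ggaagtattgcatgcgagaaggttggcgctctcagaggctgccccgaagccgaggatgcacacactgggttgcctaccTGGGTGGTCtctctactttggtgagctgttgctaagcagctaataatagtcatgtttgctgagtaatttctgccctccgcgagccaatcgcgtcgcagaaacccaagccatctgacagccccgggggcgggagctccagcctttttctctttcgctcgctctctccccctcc
HHIP: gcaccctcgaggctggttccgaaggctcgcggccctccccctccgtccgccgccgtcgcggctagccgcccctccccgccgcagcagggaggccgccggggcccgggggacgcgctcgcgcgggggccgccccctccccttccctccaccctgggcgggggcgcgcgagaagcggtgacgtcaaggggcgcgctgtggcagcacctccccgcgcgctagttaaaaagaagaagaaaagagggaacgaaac
The whole windows also differed in base composition. That of HHIP had a GC content of 72.7% and 36 CpG dinucleotides, against 57.0% and 13 for the PTCH1 window with the motif and medians of 58.7% and 14 over all windows. A match of letters is no measurement of binding, and the RNA-seq table does not tell which start was used.

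The co-receptors BOC and CDON took different courses. BOC had 11, 15, 16 and 14 on days 0 to 3, then 11 and 16 on days 5 and 7, 34, 30 and 60 on days 9, 11 and 13, and 133 on day 21. It lay at 16 or below in the 6 libraries up to day 7 and at 30 or above in the 4 later ones, a division made after the values were seen. The log2 difference was 1.84 from day 7 to day 13 and 1.14 from day 13 to day 21, against SDs of 0.44 and 0.34, and 3.48 from day 0 to day 21, against 0.45. CDON had 58, 35, 28 and 42 on days 0 to 3, then 30 and 82 on days 5 and 7, 64, 66 and 47 on days 9, 11 and 13, and 38 on day 21. It was thus highest on day 7, with a log2 difference of 1.42 from day 5, against an SD of 0.51. No neighbouring values in the order of CDON days lay more than 2 SDs apart, and for BOC only those of days 21 and 13 did. BOC is listed as ENSG00000144857 on the plus strand of chromosome 3 (112929850 to 112969558), and CDON as ENSG00000064309 on chromosome 11, minus strand (125825691 to 125933187).

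SMO, the transducer of the signal, was the steadiest of the 7. Its values were 218, 284, 239 and 210 on days 0 to 3, 283 and 245 on days 5 and 7, 258, 224 and 258 on days 9, 11 and 13, and 242 on day 21. Its range over the libraries was 0.43 on the log2 scale, where the median range of all genes was 1.70 and that of the 7 members 2.76. SMO is listed as ENSG00000128602 on the plus strand of chromosome 7 (128828713 to 128853386).

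The lowest values of the GLI factors were those of day 7 for GLI2 and day 5 for GLI3, but no neighbouring values in the order of either gene's days lay more than 2 SDs apart. GLI2 had 74, 114, 78 and 70 on days 0 to 3, then 36 and 16 on days 5 and 7, 32, 38 and 42 on days 9, 11 and 13, and 45 on day 21. It was at 70 or above in the 4 libraries up to day 3 and at 45 or below in the 6 later ones, the opposite split in time to that of PTCH1. Both divisions were made after the values were seen, so that their match in time is a description only. The log2 difference from day 3 to day 7 was -2.06, against an SD of 0.43, just past the difference that was called, and with a pseudocount of 5 it was -1.84. GLI3 had 73, 26, 34 and 46 on days 0 to 3, then 15 and 36 on days 5 and 7, 69, 90 and 130 on days 9, 11 and 13, and 60 on day 21. Its log2 difference was -1.55 from day 3 to day 5 and 1.82 from day 7 to day 13, against SDs of 0.49 and 0.36, and -1.10 from day 13 to day 21, against 0.34. Between day 0 and day 21 the differences of GLI2 and GLI3 were -0.71 and -0.28, against SDs of 0.41 and 0.36. Which form of the GLI3 protein was present cannot be read from mRNA. GLI2 is listed as ENSG00000074047 on the plus strand of chromosome 2 (121493199 to 121709042), and GLI3 as ENSG00000106571 on chromosome 7, minus strand (42000548 to 42276612).

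The comparison of step ends asked in which step the pathway genes moved. From day 0 to day 3, with Activin A, 0 of the 5 members with a value of at least 50 were called in either direction, where 6.1% of all genes tested were. From day 3 to day 7, with FGF4 and BMP2, GLI2 was called lower, 1 of 5, where 4.41% of all genes were, and 0 members were called higher, where 5.63% were. From day 7 to day 13, with HGF and KGF, HHIP was called higher, 1 of 6, where 3.08% of all genes were, and 0 members were called lower, where 2.46% were. From day 13 to day 21, with OSM, 0 of 5 members were called and 3.89% of all genes were. This count depended on reading day 13, which is labelled OSM, as the start of that step. From day 11 to day 21 HHIP was called lower and BOC higher, with log2 differences of -2.22 and 2.11, 2 of 6 members, where 5.22% of all genes were called in either direction. Between the ends of the course HHIP and BOC were called higher at day 21 than at day 0, 2 of 7, where 11.9% of all genes were. With a 2-fold limit, HHIP, GLI3 and BOC were higher from day 7 to day 13, where 9.65% of all genes were, and from day 13 to day 21 HHIP and GLI3 were lower and BOC higher, where 9.08% of all genes were lower and 8.57% higher. The median difference of the 7 members was -0.05, 0.22, 1.34 and -0.28 over the successive steps, beside medians of all genes of -0.04, -0.03, -0.04 and -0.10. The 1.34 is the difference of GLI2, whose values of 16 and 42 are below the minimum for a call. For the 6 members with a value of at least 50 the median of that step was 0.95. With day 11 in place of day 13 it was 0.87 for the 7 members and -0.05 for the 5 tested, beside -0.03 for all genes. Successive steps share a library, so that a high or low day 7 or day 13 library enters both of its neighbours.

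**Figure D2:**
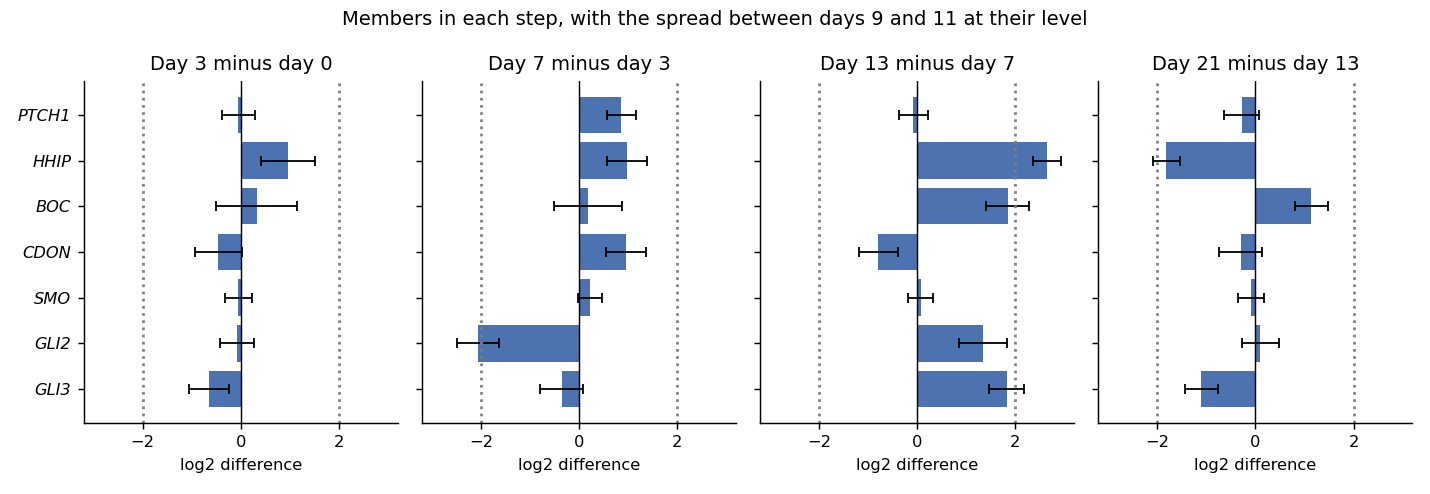
Differences of log2(value + 1) of the 7 genes between the ends of the 4 steps of the protocol (bars, from 0), with error bars of 1 SD of the difference between days 9 and 11 over the 500 genes nearest in level, which are not replicate errors, and dotted lines at the difference of 2 that was called. GLI2 passes the line from day 3 to day 7 (-2.06) and HHIP from day 7 to day 13 (2.64), and no bar passes it in the first and last steps, although from day 11 in place of day 13 to day 21 HHIP (-2.22) and BOC (2.11) would.

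Of the genes that make and release the ligand, the 4 found of 8 listed (IHH, DISP1, SCUBE1 and SCUBE3) included IHH, Indian hedgehog, which reached its upper range before HHIP did. IHH (ENSG00000163501) had 0, 0, 1 and 4 on days 0 to 3, then 118 and 310 on days 5 and 7, 255, 318 and 241 on days 9, 11 and 13, and 88 on day 21. Its log2 difference was 4.57 from day 3 to day 5 and 5.96 from day 3 to day 7, against SDs of 0.56 and 0.47, so that the ligand was already high at day 7, when HHIP was at 64. IHH was also lower at day 21 than at day 13, by a log2 difference of -1.44. SCUBE1, of a family of secreted proteins that help release ligand, had 7, 82 and 7 on days 3, 7 and 13, with log2 differences of 3.38 and -3.38. SCUBE3 had 2 on day 0 and 104 on day 21, and DISP1, which exports the ligand from the cell, stayed between 15 and 28.

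Among the receptors and other proteins that bind the ligand, 6 of 8 listed were found, the members PTCH1, HHIP, BOC and CDON included. LRP2, a large endocytic receptor, and GPC3, a glypican that competes with PTCH1 for ligand, were called higher from day 3 to day 7, 2 of 5 tested where 5.63% of all genes were. LRP2 had 4 on day 3, then 216 and 1488 on days 5 and 7, 1021, 582 and 155 on days 9, 11 and 13, and 227 on day 21. GPC3 had 56 on day 3, then 308 and 3428 on days 5 and 7, 6493 from day 9 to day 13, and 4855 on day 21, and its equal values are levels of the shared scale. Both proteins also have roles outside the Hedgehog pathway.

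**Figure D3:**
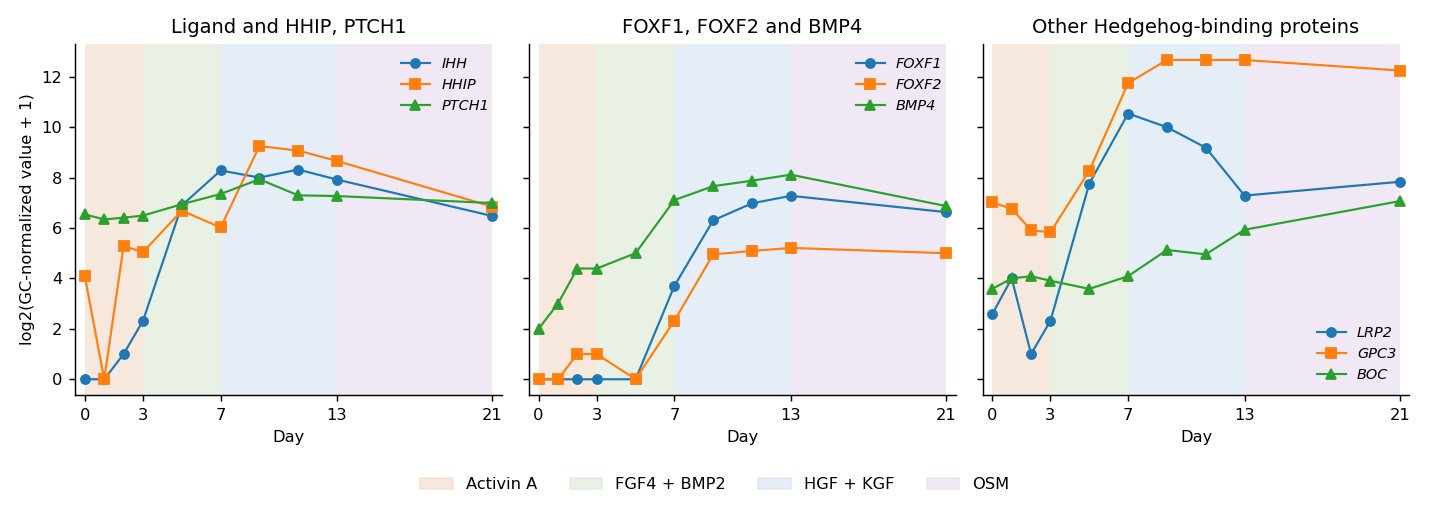
Values on the log2(value + 1) scale against the day for IHH, HHIP and PTCH1 (left), FOXF1, FOXF2 and BMP4 (middle) and LRP2, GPC3 and BOC (right), 1 point per library without replicates, with shading for the steps by their durations. IHH is at 118 by day 5 and 310 by day 7, HHIP goes from 64 at day 7 to 607 at day 9 and FOXF1 from 12 to 78, and heights of different genes are not comparable because values are not per length.

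No other gene of signal transduction was called. Of 18 found of 19 symbols listed, 17 were tested in each of the 5 comparisons and 0 were called, and the median differences of the list lay between -0.06 and 0.06. The share of all genes called in either direction was 6.1% from day 0 to day 3, 5.54% from day 7 to day 13, 3.89% from day 13 to day 21 and 23.5% from day 0 to day 21, and from day 3 to day 7 it was 5.63% for higher and 4.41% for lower. The genes named next were picked after their values were seen. SUFU, which restrains the GLI factors, had 58 on day 0 and 133 on day 21, its lowest and highest values. EVC, a ciliary partner of SMO, had 69 on day 3 and 202 on day 5. Of the 15 genes of the primary cilium, all were found, 12 or 13 were tested in each of these comparisons and 0 were called, beside the same shares of all genes, with medians between -0.19 and 0.08. BBS1, of the complex that carries proteins into and out of the cilium, was highest on day 9 with 116 and lowest on day 21 with 9. Its log2 difference from day 13 to day 21 was -2.23, but its larger value of 46 was below the minimum for a call.

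Of 12 listed target genes outside the members, 8 were found, and they did not move in 1 direction. FOXF1 and FOXF2, transcription factors of the gut mesenchyme, appeared late. FOXF1 was listed at 0 up to day 5 and then had 12 on day 7, 78, 125 and 154 on days 9, 11 and 13, and 98 on day 21. FOXF2, named for its relation to FOXF1 though never called, had at most 1 up to day 5, 4 on day 7 and between 30 and 36 later. BMP4, a secreted growth factor, had 20 on day 3, then 31 and 137 on days 5 and 7, 201, 234 and 276 on days 9, 11 and 13, and 116 on day 21. All 3 genes were at their highest on day 13. From day 3 to day 7, BMP4, MYCN and IGFBP6 were called higher, 3 of the 6 targets tested, where 5.63% of all genes were. In that step 0 targets were called lower, where 4.41% of all genes were. Of the 8 found, 6 had higher values on day 7 and 2 lower ones. From day 7 to day 13, FOXF1 was called higher, 1 of the 7 targets tested, where 3.08% of all genes were. In the same comparison SFRP1, MYCN and IGFBP6 were called lower, where 2.46% of all genes were. MYCN, a transcription factor of proliferating progenitors, had 201, 39, 330, 60 and 4 on days 0, 3, 7, 13 and 21. IGFBP6, which binds insulin-like growth factors, had 12, 91, 604, 57 and 5 on the same days. SFRP1, a Wnt antagonist, had 1490, 527, 64 and 39 on days 3, 7, 13 and 21. CCND1 and CCND2, which encode D-type cyclins, were among the targets not called in any of the 5 comparisons.

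HHIP, BOC, GLI3 and FOXF1, picked after their values were seen, had higher values on day 13 than on day 7, as did the mesenchymal and the endothelial markers. Of the 7 members, 5 were higher on day 13, GLI2 (1.34) and SMO (0.07) included, and 2 were lower, PTCH1 (-0.08) and CDON (-0.79). The 8 targets outside the members were divided, with 4 higher and 4 lower. Of the 11 mesenchymal markers found, all 11 were higher, with a median log2 difference of 1.80, and 5 of the 10 tested were called higher, where 3.08% of all genes were. PDGFRB, a receptor of mesenchymal cells, had 42 on day 7, 128, 202 and 290 on days 9, 11 and 13, and 518 on day 21. The 4 endothelial markers summed to 373 on day 7, 798, 1072 and 1902 on days 9, 11 and 13, and 1202 on day 21. All 4 were higher on day 13 than on day 7, with a median log2 difference of 1.87, and 2 of the 3 tested were called. From day 13 to day 21, when BOC had a higher value and HHIP, GLI3 and FOXF1 lower ones, 4 of the mesenchymal markers were higher, 4 lower and the others equal, and all 4 endothelial markers were lower. The hepatic markers had a median log2 difference of 0.68 from day 7 to day 13, with 3 of 10 called higher. AFP was at 18734, the highest value of the scale, on both days, so that a rise of it could not be seen. COL1A2, of the mesenchymal list, reached the same value on day 13, so that the medians of the lists were not compared. The part of these cell types in the values of the Hedgehog genes was not tested.

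**Figure D4:**
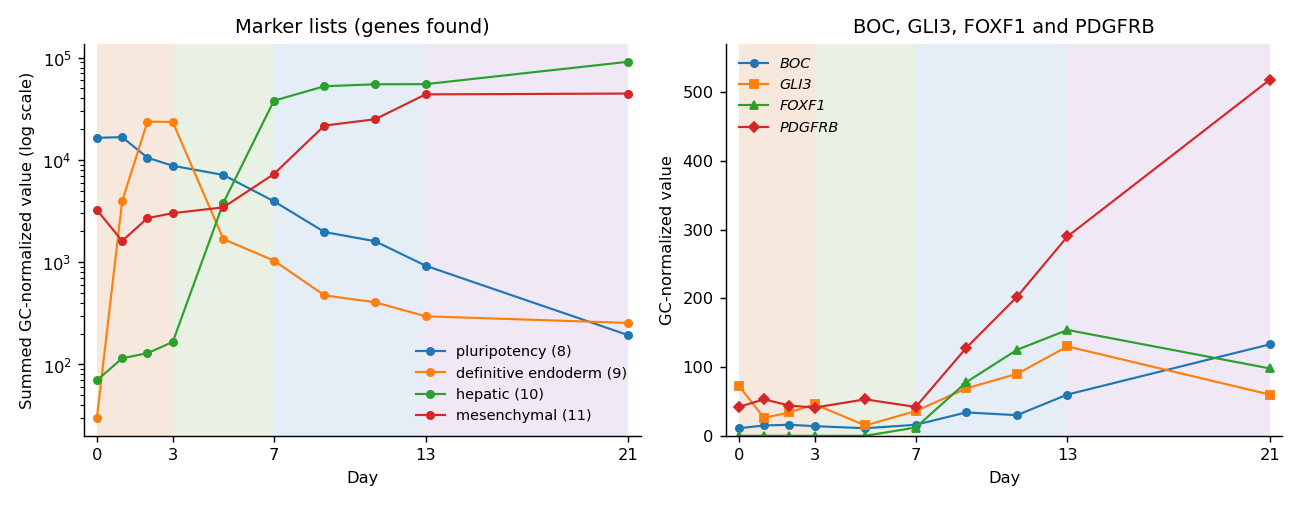
Left, summed GC-normalized value of the markers found of each of 4 lists against the day, on a log axis, and right, GC-normalized value of BOC, GLI3, FOXF1 and PDGFRB on a linear axis from 0, with 1 library per day and shading for the steps by their durations. The mesenchymal sum goes from 7279 at day 7 to 43725 at day 13, and over the same days GLI3 goes from 36 to 130, FOXF1 from 12 to 154 and BOC from 16 to 60. PTCH1 and CDON, not drawn here, go from 162 to 153 and from 82 to 47.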

How the data were processed

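Per the methods and the submitters' processing notes, reads of bulk TruSeq libraries were aligned to a transcriptome named ENSEMBL (mm10 v76) with Bowtie2 2.2.0 and RSEM 1.2.17 and normalized for GC content with EDASeq. The authors deposited 1 table of 12125 genes as whole-number scores, not counts, with 1 column for each of 10 days. GC normalization and the shared scale limit what can be said of levels, and the methods give the sequencing depth only as an average over the samples, not per library. The gene names are human. The notes list the builds mm10 and hg19, the table names none, and only 1944 of 11961 identifiers found in GENCODE release 29 overlapped their GRCh38 interval, so intervals are given as in the table.

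The members and gene lists were chosen with earlier results of these data known. Differences of log2(value + 1) were called at 2 or more with the larger value at least 50. Named genes were the members, up to 5 called genes per pathway list and comparison, the 3 genes most like PTCH1, HHIP, BOC and GLI3, and markers where a result turned on them. DISP1, FOXF2, SUFU, EVC, BBS1, CCND1 and CCND2 fall outside this rule and were chosen after their values were seen. A comparison of protein sequences was not run. No test was possible with 1 library per day. The code was tested on simulated data. Python 3.11.15, numpy 2.4.6, pandas 2.3.3 and matplotlib 3.10.9 were used. Alternatives were other pseudocounts, scalings, limits and days.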

Additional observations from a re-analysis of the deposited data

How the results depend on the processing

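No paired analysis was possible because each day has 1 library. Of 37 alternative counts of called members, 31 stayed within 1.5 times the count reported. From day 3 to day 7 the count of 1 became 0 with a pseudocount of 5 and with a larger value of at least 200, since GLI2 is at 70 and 16. From day 7 to day 13 the count of 1 became 3 with the 2-fold limit. From day 13 to day 21 the count of 0 became 3 with the 2-fold limit and 2 (HHIP and BOC) with day 11 in place of day 13. From day 0 to day 21 the count of 2 became 0 with a larger value of at least 200 required. Of 154 alternative values of the 35 member differences, 146 moved by no more than the SD at their level, and the 8 others all came from day 11 in place of day 13, which took the difference of HHIP to 3.05 from day 7 and to -2.22 up to day 21. The sign differed in 2, for a difference of at most 0.09. Scaling to the same total used factors between 0.9908 and 1.0043, so that the alternatives with that scaling could hardly differ and add little to these counts. Scaling by the median of ratios moved the median of all genes from day 0 to day 21 from -0.12 to 0.06. The SD at a value of 100 was 0.47 between days 2 and 3 and 0.37 between days 11 and 13, both chosen after seeing the data. The range of HHIP fell to 5.16 without the day 1 library, where it is listed at 0. Low values (GLI2, BOC, CDON) limit what 1 library per day can show.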

Other observations

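The genes whose log2 values over the 10 libraries were most like those of a member, by Pearson's r as a description with no test, were FBLN1 (0.954), NPR2 (0.953) and CDK6 (0.947) for HHIP. HHIP is listed at 0 on day 1, where FBLN1, NPR2 and CDK6 also had their lowest values (546, 29 and 24). Their likeness was not computed without that library. For PTCH1 they were KIAA2013 (0.964), PLK2 (0.953) and SLC13A2 (0.952), for BOC they were B2M (0.979), PTPRA (0.979) and SLC10A1 (0.979), and for GLI3 they were VAMP2 (0.977), KDR (0.961) and ECI2 (0.949). These names changed with the libraries and the measure used, and the cause was not tested. Without the day 21 library 0 of the 3 remained for HHIP and BOC and 1 of the 3 for PTCH1 and GLI3, and with Spearman's rho 2 of the 3 remained for GLI3 and 0 for the others.

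Within the pathway, PTCH1 and HHIP had a Pearson's r of 0.81 and a Spearman's rho of 0.83 over the 10 libraries. With IHH, PTCH1 had an r of 0.89 and a rho of 0.89, and HHIP an r of 0.83 and a rho of 0.83. With BMP4, PTCH1 had an r of 0.85 and a rho of 0.81, and HHIP an r of 0.84 and a rho of 0.90. GLI2 ran the other way, with an r of -0.81 with PTCH1 and of -0.88 with IHH. BOC and CDON, the paired co-receptors, had an r of 0.06, and SMO had an r between -0.47 and 0.16 with the other 6 members. All of these share the same libraries and the same order of days and are given as a description.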
